A study of Rattus norvegicus with 36 samples.

Results

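Dio1, Dio2, Thra, Thrb and Slc16a10, which make, sense and carry the active form of thyroid hormone, were followed in the rat thyroid 24 h after an injection of 131I, the radioactive iodide given in diagnosis and therapy of the thyroid. The genes were chosen by symbol, and all probes annotated to them were taken. They are 5 of the 15154 genes with a probe on the array, and each had 1 probe among 30367 probes. Total RNA from the thyroid of each of 36 adult male Sprague Dawley rats was labelled with Cy3 and hybridised to 1 rat array per animal. The 8 irradiated groups of 4 rats received 131I in saline into the tail vein. The activity was 9, 88, 170 and 260 kBq in the 4 lower groups and 340, 760, 1300 and 4700 kBq in the 4 higher ones, and 4 control rats were mock-treated. The irradiated groups were injected in the order of their activity and the controls after them, so that activity and time of injection cannot be told apart. The RNA came from the excised tissue as a whole, and in such bulk samples fewer cells of a type and less RNA per cell cannot be told apart.

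The thyroid gland makes mostly the prohormone thyroxine, and deiodinases, which are enzymes with selenocysteine in the active centre, remove iodine from it. Type 1 deiodinase (Dio1) and type 2 deiodinase (Dio2) both form the active hormone triiodothyronine, and Dio1 also clears inactive forms. Triiodothyronine binds the nuclear receptors alpha (Thra) and beta (Thrb), which control transcription from DNA together with retinoid X receptors. Slc16a10, also known as monocarboxylate transporter 10, carries aromatic amino acids and thyroid hormones across the cell membrane.

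The promoters of the 3 genes whose probes were well above background on at least 35 of the 36 arrays are printed to show what sequence lies before genes that are measured throughout. Each run holds the 250 bases before the annotated start of transcription, 5' to 3' on the strand of the gene, from RefSeq with the assembly GRCr8. Dio1 lies on the minus strand at chr5:127319785-127320034, the first annotated start of Thra on the plus strand at chr10:84197891-84198140, and Slc16a10 on the minus strand at chr20:45122359-45122608. Capitals mark AGGTCA, the half-site that thyroid hormone receptors and other nuclear receptors bind.
Dio1: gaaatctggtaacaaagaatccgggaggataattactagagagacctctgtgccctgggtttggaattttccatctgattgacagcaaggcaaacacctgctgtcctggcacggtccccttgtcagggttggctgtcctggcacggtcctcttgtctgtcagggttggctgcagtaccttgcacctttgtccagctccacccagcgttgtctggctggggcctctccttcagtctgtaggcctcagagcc
Thra: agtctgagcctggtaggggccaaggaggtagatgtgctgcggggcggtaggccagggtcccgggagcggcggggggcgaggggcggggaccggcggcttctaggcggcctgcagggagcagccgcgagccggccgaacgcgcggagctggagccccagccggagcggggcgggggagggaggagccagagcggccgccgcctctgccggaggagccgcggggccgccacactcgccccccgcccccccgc
Slc16a10: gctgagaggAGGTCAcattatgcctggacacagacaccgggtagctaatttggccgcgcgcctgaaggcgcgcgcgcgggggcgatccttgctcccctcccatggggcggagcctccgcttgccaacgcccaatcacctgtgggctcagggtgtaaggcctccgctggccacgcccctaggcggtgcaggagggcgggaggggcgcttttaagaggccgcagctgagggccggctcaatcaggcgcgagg
Slc16a10 held 1 half-site, starting at base -241 counted from the start of transcription, and the Dio1 and Thra windows held none on either strand (AGGTCA or TGACCT). Such a hexamer occurred in 14.1% of 33469 rat promoters of the same length. The core CAAGTG (or CACTTG) bound by Nkx2-1, a transcription factor of follicular cells, was in none of the 3 windows and in 11.7% of all promoters. The windows differed in base composition, with 55.2% G and C before Dio1, 79.6% before Thra and 68.4% before Slc16a10.

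Levels are given as the log2 intensity of the probe relative to the 75th percentile of the array, so that 0 is the brightness of that percentile, and levels of different probes are not compared. The 75th percentile was 1564 to 4288 intensity units, 62.6% to 91.0% of the probes were well above background by the scanner software's call, and 0 spots were saturated. The tissue was checked with 11 lists of marker genes. The mean of 13 follicular cell genes, such as thyroglobulin (Tg), was 0.96 to 2.47 on 18 arrays and -5.29 to -0.92 on the other 18. Low arrays occurred in every group, the controls included. Arrays with high follicular means numbered 3 of 4 in the controls and in the 4700 kBq group, 1 of 4 in the 9 and 340 kBq groups, and 2 of 4 in the other 5 groups. The follicular markers were not all absent from the low arrays, and Tg was well above background on all 36. On the low arrays Tg ran from -4.51 to 6.83 with a median of 0.06, and on the high ones from 6.78 to 7.48. It was 6.20 in the first 88 kBq rat and 6.21 in the third 260 kBq rat, both with low follicular means. The mean of 8 fast skeletal muscle genes was 6.39 to 8.24 on the 18 low arrays and -2.93 to 7.28 on the others. The mean of 4 squamous epithelium genes was above 0 on 11 of the 18 low arrays and on 2 of the 18 high ones (the first 260 kBq rat at 2.81 and the third 1300 kBq rat at 3.33), and the mean of 4 lymphoid genes, of which Cd3e was well above background on 5 arrays, was above -2 on 3 arrays.

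Dio1, the deiodinase best known from thyroid, liver and kidney, was the member with the widest spread between rats. Its level ran from -6.05, on the only array where it was not well above background, to 3.03, and its SD between rats of a group, 3.62, was larger than that of 99.5% of all probes. In the control rats Dio1 was 2.59, 1.27, -4.08 and 3.03, and the third control rat lay far below the other 3. In the 9 kBq group it was -5.55, 1.51, -3.99 and -3.56, with 1 rat at the level of the high controls. The 88 kBq group gave -3.07, -3.87, 2.37 and 2.24, and the 170 kBq group gave 0.99, 2.66, -4.39 and -3.20. Both groups held 2 high and 2 low rats. In the 260 kBq group the values were 2.58, 2.71, -3.19 and -5.28, and in the 340 kBq group -5.29, -5.66, -4.55 and 2.02. The 340 kBq group had the lowest mean of all, with 3 rats below every control rat and the remaining rat among the high controls. At 760 kBq Dio1 was -1.51, -4.14, 2.71 and 2.42, at 1300 kBq -6.05, -5.08, 2.50 and 2.27, and at 4700 kBq 2.12, 2.66, -5.14 and 2.21. No irradiated group was thus clear of the controls. The level was at least 0.99 on 18 arrays and at most -3.07 on 17, and only the first rat of the 760 kBq group, at -1.51, lay between. The 18 arrays with high Dio1 were the 18 with high follicular means. They were also the 18 with high means of the 5 C cell genes, such as Calca, at -0.42 to 2.25 against -5.95 to -2.94 on the other 18. The split was thus not particular to the follicular markers.

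**Figure D1:**
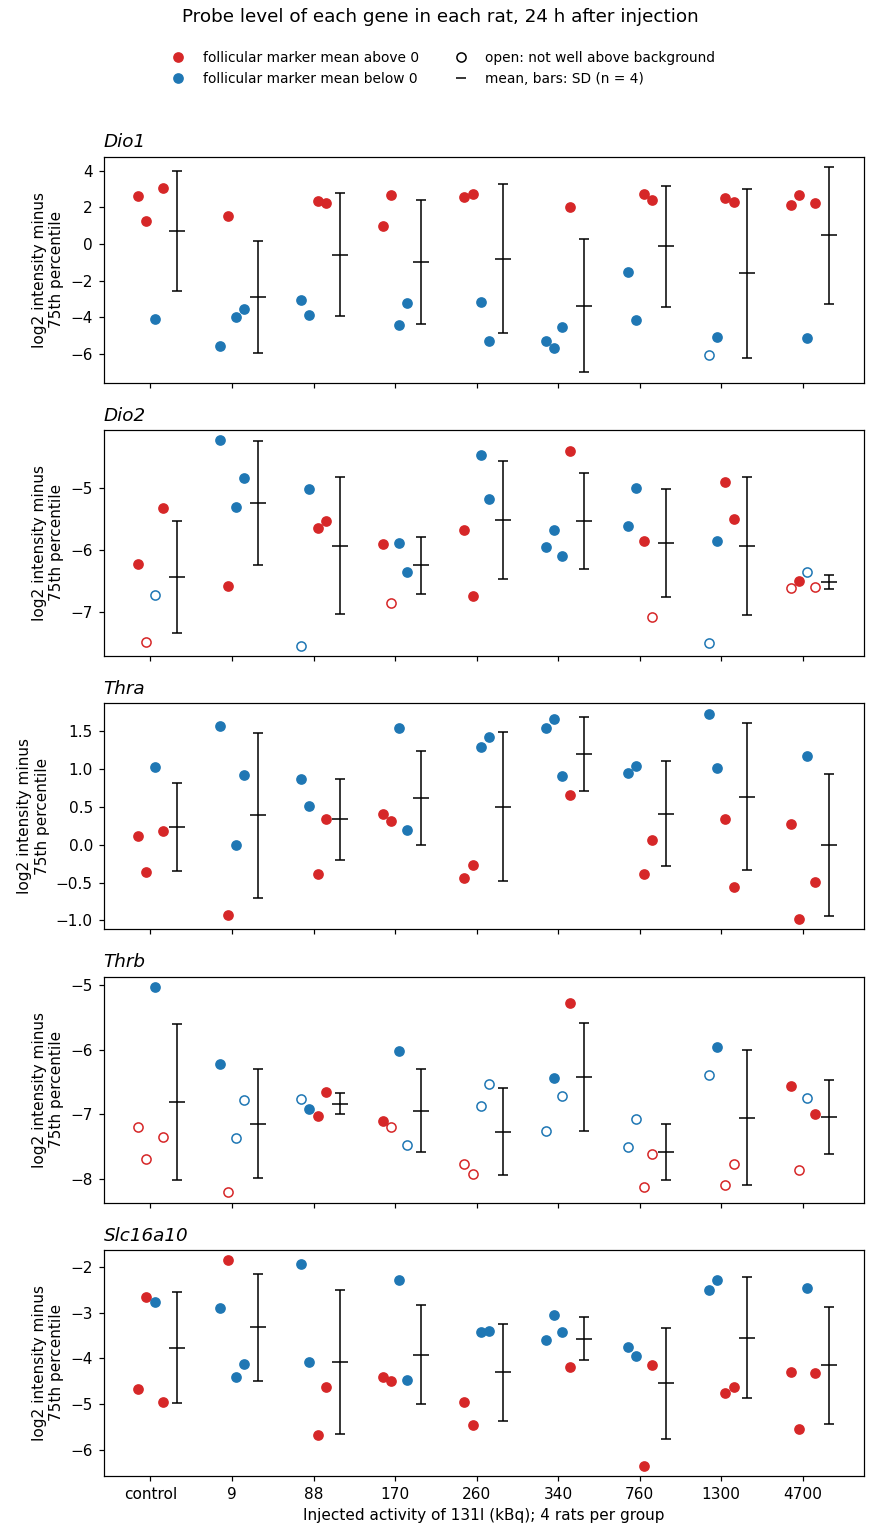
Level of each gene (log2 intensity minus the array's 75th percentile, vertical axes) in each rat by injected activity of 131I in kBq (horizontal axis). Points are rats, coloured by the sign of the follicular marker mean and open where the probe was not well above background, and black marks are the group mean with SD (n = 4). Dio1 falls into a high and a low set of rats that follow the colours in every group, whereas Dio2 shows no such split.

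The mean level of Dio1 was 0.70 ± 3.27 (SD, n = 4) in the controls, -2.90 ± 3.06 (SD, n = 4) in the 9 kBq group and -3.37 ± 3.62 (SD, n = 4) in the 340 kBq group. The differences from the controls were negative in all 8 groups, from -0.24 at 4700 kBq to -4.07 at 340 kBq on the log2 scale. All 8 comparisons share the same 4 control rats. The difference at 340 kBq had an SE of 2.46 and a 95% interval from -9.11 to 0.96 (limma, unadjusted p = 0.109, adjusted p = 0.483), so that neither no change nor a large decrease lay outside it. At 9 kBq the difference was -3.60 (SE 2.46, limma, adjusted p = 0.999). The 8 irradiated groups together were 1.94 lower in mean level than the controls on the log2 scale (SE 1.85, limma, adjusted p = 0.968). These differences moved with the follicular markers and with 1 control rat. With the follicular mean as a covariate the Dio1 difference was 0.52 at 9 kBq, -0.41 at 340 kBq and -0.10 for the irradiated groups together. Without the third control rat, in which follicular markers and Dio1 were low, the difference was -5.66 at 340 kBq (limma, adjusted p = 0.212) and -3.53 over all irradiated groups (limma, adjusted p = 0.563), and neither passed. Within a scan day the Dio1 differences ran from -7.67 to 2.64 over 15 pairs of a group with controls of that day, and 3 of the 15 were positive. Each of these rests on 1 or 3 control rats.

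Across the 36 rats Dio1 rose and fell with the follicular markers, with Pearson's r = 0.99 and Spearman's rho = 0.93 (permutation p = 1e-05 for both, the smallest that 100000 permutations can give, and 1.67e-05 for rho after adjustment over the 5 genes). The largest gap between neighbouring follicular means, 1.88, was below the limit of 2 for separate sets, so the pooled values are given. Dio1 itself left a gap of 2.50, above that limit, so the pooled values include the step between its high and low sets. Because the follicular means lie mostly at 2 ends, the relation was also taken within each end. It held among the 18 arrays with high means (r = 0.88, rho = 0.90, adjusted permutation p = 5e-05 for both). Among the 18 with low means r was 0.77 (adjusted permutation p = 0.0005) and rho was 0.52 (adjusted permutation p = 0.15), and without the 2 arrays farthest from the median of the follicular means these became 0.55 and 0.31, so that the relation in the low set rests on few arrays. Within scan days rho was 0.96 (n = 16) and 0.88 (n = 20). Deviations from the group means gave r = 0.99, so that the relation was present between rats that received the same activity. Dio1 was not a member of the marker list. With the fast muscle genes rho of Dio1 was -0.79 over all arrays, which includes the step between its sets. It was -0.43 on the high arrays and -0.77 on the low ones. The permutation p adjusted over 55 relations was 6.11e-05 over all arrays, 0.248 on the high ones and 0.00513 on the low ones.

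**Figure D2:**
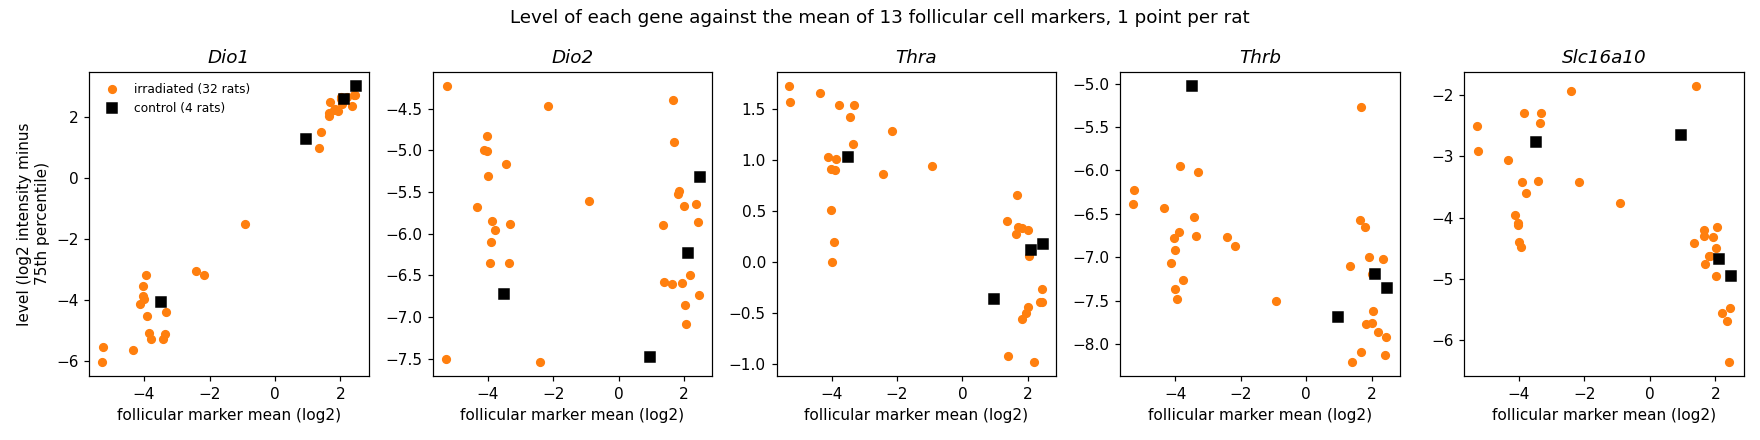
Level of each gene (log2 intensity minus the array's 75th percentile, vertical axes) against the mean level of 13 follicular cell markers (horizontal axes) for the 36 rats, with control rats as black squares and irradiated rats as orange circles. Dio1 lies along a rising line, Thra and Slc16a10 lie mostly higher at low follicular means, and Dio2 shows no clear trend. The control rat at the left is the third control rat.

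Dio2, known for making triiodothyronine within brain, pituitary and brown fat, gave a weak signal that was well above background on 27 of the 36 arrays. Its level ran from -7.54 to -4.23, and its SD between rats was 0.87. The control rats were at -6.23, -7.47, -6.72 and -5.32, of which 2 were well above background. The 9 kBq rats were at -4.23, -6.58, -5.30 and -4.83, and 3 of them lay above every control rat. The 4700 kBq rats lay closest together, at -6.60, -6.50, -6.35 and -6.60, of which 1 was well above background, within the range of the controls. The other 6 irradiated groups ranged from -7.54 to -4.40 and overlapped with the controls. The difference from the controls was positive in 7 of 8 groups and was highest at 9 kBq, where it was 1.20 (SE 0.60, 95% interval -0.02 to 2.43, limma, unadjusted p = 0.0536, adjusted p = 0.999). An exact permutation test of these 8 rats gave p = 0.114, two-sided. The difference at 9 kBq was 1.17 with the follicular covariate and 0.40 after normexp background correction, and only 1 of the 4 rats in that group had high follicular markers. For the irradiated groups together the difference was 0.59 (SE 0.45, limma, adjusted p = 0.968). Its relation to the follicular mean did not pass (r = -0.18, rho = -0.21, adjusted permutation p of rho = 0.213), and rho was 0.24 (n = 16) and -0.51 (n = 20) within the scan days. Among the 18 arrays with high follicular means it rose with the mean of 5 adipose tissue genes, such as adiponectin (Adipoq), with r = 0.80 and rho = 0.81 (permutation p of rho adjusted over 55 relations = 0.00247). This relation was picked from those 55 after they had been seen, gave r = 0.88 without the 2 farthest arrays, and was rho = 0.11 on the 18 low arrays. Over all 36 arrays Dio2 also rose with the cartilage gene mean (rho = 0.44, permutation p adjusted over 55 relations = 0.0188). Its rho with cartilage was 0.04 and 0.68 within the scan days. On the high and low arrays it was 0.23 and 0.51 (adjusted permutation p = 0.622 and 0.108). The part of these tissues in the level of Dio2 was not tested.

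Thra, the receptor that predominates in muscle, heart and bone, was well above background on all 36 arrays. In the control rats it was 0.12, -0.37, 1.03 and 0.17, and the highest value again belonged to the third rat. In the 340 kBq group it was 1.54, 1.66, 0.90 and 0.66, so that 2 rats lay above every control rat and the other 2 between the third control rat and the remaining 3. The 9 kBq rats had 1.57, -0.92, -0.0025 and 0.91, which reach beyond the controls on both sides. The 88 kBq rats had 0.87, 0.52, -0.39 and 0.34, and the 170 kBq rats had 0.41, 0.31, 1.54 and 0.19. In the 170 kBq group the third rat stood apart from the other 3. At 260 kBq Thra was -0.44, -0.26, 1.28 and 1.42, at 760 kBq 0.94, 1.03, -0.39 and 0.06, and at 1300 kBq 1.73, 1.01, 0.34 and -0.55. In these 3 groups the rats with high follicular markers were the 2 with the lower Thra level. The 4700 kBq rats had 0.28, -0.98, 1.16 and -0.50, and their mean, -0.0093 ± 0.94 (SD, n = 4), was the lowest of the 9 groups. The largest difference from the controls was 0.95 at 340 kBq (SE 0.55, 95% interval -0.17 to 2.08, limma, unadjusted p = 0.0934, adjusted p = 0.460), against a median over all probes of 0.31 in that comparison. It gave p = 0.0857 in a two-sided exact permutation test and was 0.30 with the follicular covariate.

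Thra was higher where the follicular markers were low (r = -0.78, rho = -0.73, adjusted permutation p of rho = 1.67e-05, n = 36), from -0.0025 to 1.73 on the low arrays and from -0.98 to 0.66 on the high ones. Within the 18 high and the 18 low arrays rho was only -0.25 and -0.17 (adjusted permutation p = 0.503 and 0.612), so the pooled value reflects the step between the sets. Thra went with the fast muscle genes in all 36 arrays (r = 0.58, rho = 0.88, permutation p of rho adjusted over 55 relations = 6.11e-05) and within each set, with rho = 0.66 (adjusted p = 0.0364) and 0.83 (adjusted p = 0.0022) by permutation. Without the 2 arrays lowest in muscle genes r was 0.79, and rho was 0.72 and 0.92 within the scan days. The part of muscle RNA in the level of Thra was not tested. Nr1d1, a clock gene that overlaps the end of Thra on the opposite strand, had its own probe, and its level followed that of Thra (r = 0.64, rho = 0.67, permutation p of rho = 1e-05, n = 36, and r = 0.56 without the 2 farthest arrays). This relation was not taken within the follicular sets or the dose groups, so the pooled values include any step between them.

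Thrb, the receptor that mediates feedback of thyroid hormone on the pituitary, was the dimmest of the 5 in detection, with 12 of 36 arrays well above background. Its level ran from -8.21 to -5.02. The control rats had -7.19, -7.69, -5.02 and -7.35, and only the third was well above background. The fourth 340 kBq rat, at -5.27 on the array with 91.0% of probes well above background against at most 79.0% on the others, came next, and all the other rats were between -8.21 and -5.95. In the 260 and 760 kBq groups no array was well above background, and neither were 3 of the 4 control arrays, so no fold is given. The measured differences were -0.46 and -0.77 on the log2 scale (limma, adjusted p = 0.99999 for both), and without the third control rat they were 0.14 and -0.17. The other 6 differences of Thrb from the controls were between -0.33 and 0.40 (SE 0.54). Thrb was lower where follicular markers were high (r = -0.50, rho = -0.54, adjusted permutation p of rho = 0.00125), with rho of -0.21 and -0.13 within the high and low sets (adjusted permutation p = 0.503 and 0.612). It went with fast muscle genes (r = 0.48, rho = 0.74, permutation p of rho adjusted over 55 relations = 6.11e-05), with 24 of its 36 values not well above background.

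Slc16a10, the transporter, was well above background on all 36 arrays, with a level from -6.35 to -1.85 and an SD between rats of 1.19. In the control rats it was -4.67, -2.65, -2.77 and -4.95, which put 2 rats high and 2 low. In the 9 kBq group it was -2.90, -1.85, -4.40 and -4.12, and the second rat had the highest level of all 36. In the 760 kBq group it was -3.76, -3.95, -6.35 and -4.14, and the third rat had the lowest. The differences from the controls were between -0.79 at 760 kBq and 0.45 at 9 kBq (SE 0.81, limma, adjusted p at least 0.901 over the 8 groups), and that for the irradiated groups together was -0.17 (SE 0.61, limma, adjusted p = 0.980). Both ends rest on 1 rat: the difference was -0.19 at 760 kBq without the third rat of that group and -0.04 at 9 kBq without the second rat of that group. Every irradiated group overlapped with the controls.

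The level of Slc16a10 fell with the follicular mean over all rats (r = -0.61, rho = -0.69, adjusted permutation p of rho = 1.67e-05) and among the 18 arrays with high means (r = -0.80, rho = -0.77, adjusted permutation p of rho = 0.0008). Among the 18 low arrays rho was 0.27 (adjusted permutation p = 0.612). The lymphoid markers separated some of these rats. On the 3 arrays with a lymphoid mean above -2, the second control rat, the second 9 kBq rat and the first 88 kBq rat, Slc16a10 was -2.65, -1.85 and -1.94. On the 16 arrays with high follicular and low lymphoid means it was -6.35 to -4.14, below all 3 of them. Of the 3, the first 88 kBq rat had a low follicular mean, -2.42. That rat is also 1 of the 7 low squamous arrays below, and it has the highest level among them. The low follicular arrays split by squamous epithelium markers such as keratin 13 (Krt13). Slc16a10 was -3.06 to -1.94 on the 7 arrays with a low squamous mean and -4.48 to -2.77 on the 11 with a high one, with 1 of the 11, the third control rat, inside the range of the 7. These sets were formed after the values had been seen, they carry no test, and the part of these tissues in the level was not tested. Slc16a10 also went with the fast muscle genes (rho = 0.72 over all arrays, 0.75 on the low ones, permutation p adjusted over 55 relations = 6.11e-05 and 0.00687), and r over all arrays fell from 0.53 to 0.29 without the 2 arrays lowest in muscle genes. On the high arrays rho was 0.56 (adjusted permutation p = 0.0776), and r there was -0.30 without the 2 farthest arrays.

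**Figure D3:**
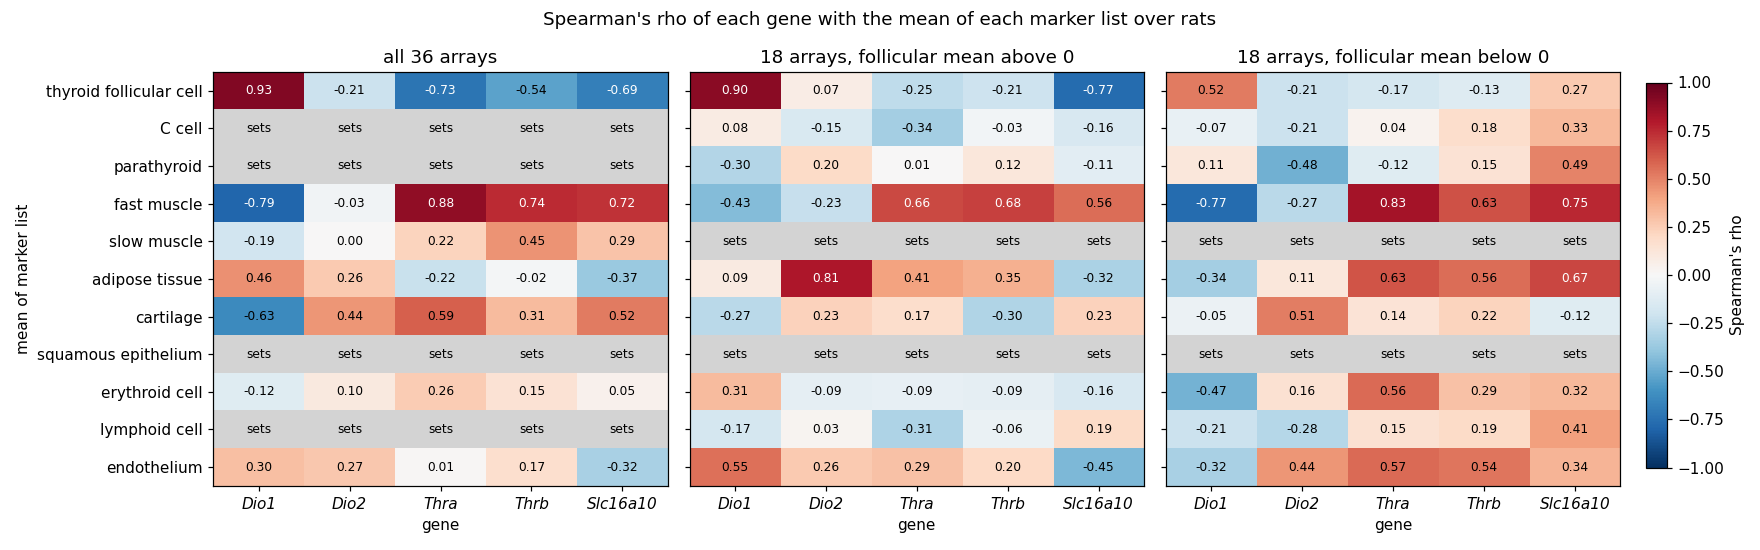
Spearman's rho (colour and number) of each gene (columns) with the mean of each of 11 marker lists (rows), over all 36 arrays and within the 18 arrays with a follicular mean above and below 0. Grey cells marked sets are lists whose means fall into separate sets of rats, for which no value is given. Dio1 is high in the follicular row, less so on the low arrays (0.52). In the fast muscle row Thra, Thrb and Slc16a10 are high and Dio1 is negative.

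No member was called regulated in any comparison, where a call required an adjusted p below 0.01 together with a change of 1.5-fold or more, the limits of the study. The percentage of all probes called by limma was likewise 0% in each of the 8 groups and 0% for the irradiated groups together. The study itself, with other software, reported regulated transcripts in every irradiated group. By the same probe, it reported Dio1 as downregulated in some of them. The paper does not name the test behind those calls, and why they differ from the calls of limma was not tested. A test of any difference among the 9 groups called 4 probes, 0.0132%, none of them a member (limma's F test, adjusted p = 0.989 for each). At an unadjusted p under 0.05, limma gave 0 members in every comparison, against 341 of 30367 probes at 260 kBq to 4152 at 340 kBq. Over the 8 groups this held for 3.90% of all pairs of probe and group, so that 0 among 5 genes lies near the background here too. The two-sided exact permutation tests of the 40 pairs of gene and group gave at least p = 0.0857, and the smallest that 4 against 4 rats allow is 0.0286. After adjustment over the 40 tests all were at least 0.927. In no group did the 4 rats lie all above or all below the controls in any member. Of all probes such a separation held for 1.73% at 9 kBq, 1.87% at 88 kBq, 1.25% at 170 kBq, 1.07% at 260 kBq, 4.36% at 340 kBq, 1.63% at 760 kBq, 1.26% at 1300 kBq and 1.27% at 4700 kBq, so that a count of 0 among 5 genes lies near the background. The intervals remain wide, and for Dio1 a p-value above the limit does not show that the level was the same.

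**Figure D4:**
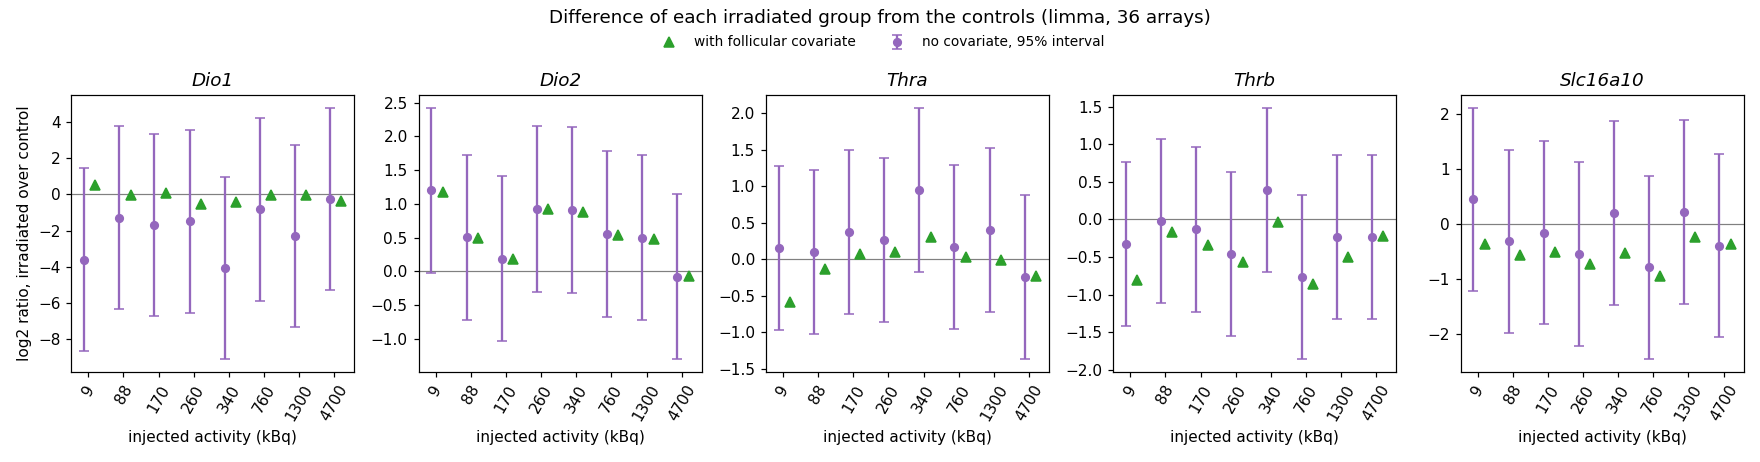
Difference of each irradiated group from the 4 control rats (log2 ratio, vertical axes) by injected activity in kBq (horizontal axes, evenly spaced) for each gene. Circles are limma estimates with 95% intervals, and triangles are the estimates with the follicular marker mean as a covariate. All intervals of the 5 genes include 0, and the Dio1 triangles lie between -0.55 and 0.52.

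The levels were also compared with the amount of activity. Over the 8 irradiated group means, rho with injected activity was 0.38 for Dio1, -0.55 for Dio2, 0.10 for Thra, -0.12 for Thrb and -0.33 for Slc16a10. None passed in a two-sided exact permutation test (p = 0.360, 0.171, 0.840, 0.793 and 0.428, at least 0.713 after adjustment over the 5). The order of the group means had Dio1 highest in the controls and lowest at 340 kBq, and neighbours in that order differed by less than the SD within the groups.

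Among the members, Thra and Thrb rose and fell together over the 36 rats (r = 0.66, rho = 0.72, permutation p of rho adjusted over 10 pairs = 3.33e-05), as did Thra and Slc16a10 (r = 0.57, rho = 0.63, adjusted permutation p of rho = 0.00012). Thrb was not well above background on 24 of the 36 arrays, and the part of the background in its relations was not tested. Within the 18 high follicular arrays rho was 0.50 for Thra and Thrb and 0.20 for Thra and Slc16a10, and within the 18 low ones 0.52 and 0.49, none of which passed after adjustment. For pairs of members Dio1 is given within the sets only, since its own levels form 2 sets with a gap of 2.50. There rho of Dio1 with Slc16a10 was -0.77 on the high arrays and -0.37 on the low ones (adjusted permutation p = 0.0029 and 0.187). With Thra, rho of Dio1 was -0.15 on the high arrays and -0.74 on the low ones (adjusted permutation p = 0.69 and 0.0039). For Thrb and Slc16a10 rho was 0.54 over the 36 rats (adjusted permutation p = 0.00128). It was 0.28 on the high arrays and 0.77 on the low ones (adjusted permutation p = 0.51 and 0.0024). Over 11764 genes ranked, those closest to Dio1 by Spearman's rho on the 36 arrays were Snx1 (0.96), Pax8 (0.95), a transcription factor of follicular cells, and Iah1 (0.95), and these values include the step between the 2 sets of Dio1. The closest to Dio2 were Cebpa (0.79), a transcription factor of fat and liver cells, Amotl2 (0.71) and Ttpa (0.70). Ivd (0.98) and Mpst (0.96), both of mitochondrial metabolism, and the mitochondrial thioredoxin Txn2 (0.97) were closest to Thra. The closest to Thrb, with the same limit of its weak signal, were Eif1 (0.87), Mapkapk2 (0.85) and Ccdc71 (0.84). Dgkz (0.94), Arpp21 (0.94) and Satb1 (0.94), the last a chromatin organiser of thymocytes, were closest to Slc16a10. These are descriptions of arrays that share their tissue content and scaling.

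Around the members, 7 lists of the pathway were followed, for transport, binding and conjugation of the hormone, turnover of deiodinases, synthesis of selenoproteins, selenoproteins, receptor partners and target genes. Of their 56 genes 47 had a probe, and Slc16a10 is one of them. None was called in any of the 8 comparisons. An unadjusted p under 0.05 was found in 19 of 376 pairs of gene and group, 5.05%, against 3.90% of all pairs of probe and group. All 4 rats lay outside the range of the controls in 13 pairs, 3.46%, against 1.81% of all, and these 13 came from 7 genes. The lists' median log2 ratios lay between -0.46 and 0.63, and that of the 10 transport genes was 0.03 at 340 kBq, against 0.31 for all probes. Among the transporters, Slco4a1 had a ratio of 2.02 at 9 kBq (limma, adjusted p = 0.999). Dio3, the deiodinase that inactivates the hormone, had a ratio of 0.06 at 340 kBq (SE 1.03). At 340 kBq Rxra and Rxrg, partners of the receptors in DNA binding, had ratios of 1.004 and 1.10 (limma, adjusted p = 0.330 and 0.635). The coactivator Ncoa2 had 0.83 at 170 kBq and 0.69 at 340 kBq, and Klf9, a direct target of the receptors, had -0.87 at 9 kBq, -0.76 at 88 kBq and -0.45 at 260 kBq. The 4 irradiated rats were clear of all controls in each of these 5 cases, while limma's adjusted p was at least 0.255. In the other 5 groups Klf9 overlapped with the controls, with ratios from -0.74 at 170 kBq to 0.27 at 4700 kBq. Of the 8 target genes, Klf9 included, 6 had a ratio below 0 at 9 kBq, 7 at 88 kBq and only 3 at 260 kBq. Their median ratios there were -0.33, -0.35 and 0.23. Ncoa2, Klf9 and Dio3 were named after their values had been seen.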

How the data were processed

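Expression was measured on 36 Agilent 1-colour rat arrays, 1 per rat, grouped by the sample labels. The deposited scanner output holds a background-subtracted intensity for each spot, and the authors also deposited a matrix of intensities quantile normalized between arrays. Per the labels, Partek was used, and its version is not given in the sources used here. Control spots were dropped, as were 331 to 1365 outlier spots on each array. Then log2 of the processed signal minus the array's 75th percentile was taken and averaged over the spots of each probe. The 30367 probes entered 1 limma 3.58.1 fit in R 4.3.3 over the 36 arrays with a mean per group. A probe with missing values (99 in all) was fitted on the arrays that had it. P-values were adjusted by Benjamini-Hochberg within each comparison. No member had a missing value. The comparison was tested on simulated data.

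The 5 genes, the marker lists and the pathway lists were chosen with earlier results of these data known. Values are given for each member, for Nr1d1, for the 3 genes closest to each member (probe well above background on at least 18 arrays), and for at most the 2 highest and 2 lowest ratios of a pathway list in a comparison, with exceptions stated. Relations over rats were tested with 100000 permutations (numpy 2.4.6, scipy 1.17.1). A list whose sorted means left a gap of over 2 log2 units with at least 3 rats on either side gave no pooled value. Alternatives were quantile normalization, median centring, normexp correction, the authors' matrix, a filter on dim probes, slide, scan day or animal number as a block, limma's trend, robust and weighting options, other limits, fits of 2 groups, the follicular mean as a covariate, and each rat left out. Slides (5) and scan days (2) are those in the scanner output. The labels' 4 animal numbers did not pair rats between groups. Coordinates are those of RefSeq for GRCr8. Precision is limited by how many arrays there are.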

Additional observations from a re-analysis of the deposited data

Results flagged for a closer look

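Among 45 sets of 4 rats, 1 per gene and group, 5 held a rat that stood apart from the other 3 by Dixon's test at the 95% level. For independent sets of normally distributed values, chance flags about 1 in 20. The 45 sets reuse the same rats, and the Dio1 levels fall into a high and a low set. The count can therefore not be set against that rate. Dio1 stood apart in the fourth 340 kBq rat, at 2.02 against -5.66 to -4.55 in the others, and this was the only rat of the group with high follicular markers. Dio1 also stood apart in the third 4700 kBq rat, at -5.14 against 2.12 to 2.66, and this was the only rat of that group with low follicular markers. Thra was 1.54 in the third 170 kBq rat, against 0.19 to 0.41. Slc16a10 was -2.29 in the same rat, against -4.50 to -4.42, and -6.35 in the third 760 kBq rat, against -4.14 to -3.76. That 760 kBq rat had the lowest mean of fast muscle genes of all 36, at -2.93. The part of the tissue markers in these values was not tested.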

How the results depend on the processing

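None of the 5 genes was called in any comparison under the alternatives run over all 36 arrays or with 1 rat left out. On the 18 arrays with high follicular markers alone, a choice made after the values had been seen, 1 member was called at 340 kBq. This was Thrb, with a log2 ratio of 2.14. It rests on 1 array in that group, so no p-value or count of probes is given for it. That array had 91.0% of probes well above background, against at most 79.0% on the others, and Thrb was not well above background on the 3 control arrays it is set against. The replicate block, with the animal number as a block, called 0 members and 0 probes in the 8 comparisons, and the pairing was not borne out (mean r between same-numbered rats -0.048 to -0.0043). Of 45 uncalled ratios, another sign was found for 20 on the follicle-rich arrays, 11 with array weights, 10 with the follicular covariate, 7 with the slide and 4 with the scan day as a block, 3 with quantile normalization, 3 in the authors' matrix, 1 with median centring and 0 under the others, and for 49 of 500 with 1 rat left out. Probe calls per comparison rose from 0 to at most 364 with array weights (adjusted p of a member at least 0.0333) and to at most 6 under the others over all arrays. The filter on dim probes left out Thrb, and the mean of all probes of a gene was not run, since each member had 1 probe.

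Within the sets of 18 arrays the relations with the follicular mean changed, as far as fewer arrays and a narrower range allow. Among the high arrays rho was 0.071 for Dio2, -0.25 for Thra and -0.21 for Thrb. Among the low arrays it was 0.52 for Dio1, -0.17 for Thra, -0.13 for Thrb and 0.27 for Slc16a10, the last with the sign turned. The rho of Thrb with injected activity was 0.38 after quantile normalization, and that of Slc16a10 was 0.10 over group medians. For both the cause was not tested. Signal over background limits Thrb and Dio2.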
